A study of Mus musculus with 10 samples.

Results

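The 10 genes described here encode chemokines of fat stroma and macrophages. They were taken by symbol from the count table, and all 10 of 10 were found among its 14623 genes. These are the CXC genes Cxcl1, Cxcl12, Cxcl13 and Cxcl14 and the CC genes Ccl2, Ccl6, Ccl7, Ccl8, Ccl9 and Ccl11. Chemokines are small secreted proteins that direct the movement of leukocytes. In white fat, CXC chemokines such as Cxcl12 and Cxcl13 are known products of stromal and vascular cells that hold and place lymphocytes and progenitors, whereas CC chemokines are made by both stromal and myeloid cells and recruit monocytes, macrophages and eosinophils.

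The cells came from the stromal vascular fraction (SVF), the non-adipocyte cells freed by collagenase, of inguinal white adipose tissue (iWAT). The groups were a Bbs8 knockout (Bbs8 KO, Bbs8-/-) and a wild-type (Bbs8 WT, Bbs8+/+) mouse, both lean and 7 weeks old, and no strain, sex or treatment was named in the labels. Bbs8 encodes a subunit of the BBSome, which moves membrane proteins in and out of the primary cilium. The deletion is constitutive, so all cell types of the knockout mouse lack the gene. The series text gives 1 mouse per genotype, so genotype ratios describe 2 mice, have no replicate check and carry no test. The libraries are of the Seq-Well S3 type: cells are caught singly in wells, and each molecule captured at its 3' end carries a unique molecular identifier (UMI).

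The table held 8985 Bbs8 KO cells with 3144195 UMIs and 1929 Bbs8 WT cells with 715989 UMIs, at medians of 251 and 278 UMIs per cell. Cell names fall into 10 barcode sets, 5 per genotype, with 1635 to 2005 cells per Bbs8 KO set and 196 to 768 per Bbs8 WT set. Values by set are always given in the order KO5_p2, KO5_p3, KO6_p1, KO6_p2 and KO6_p3, then WT3_p1, WT3_p2, WT3_p3, WT4_p2 and WT4_p3. The codes hold 2 numbers per genotype, each with up to 3 suffixes. By the methods each sample was loaded on a pair of arrays and the PCR reactions of an array were pooled in batches, so the numbers may be arrays and the suffixes pools, but no source states this. Ranges over sets are therefore read as technical. Across sets 36 barcodes occurred more than 1 time, in 103 cells, and leaving these cells out moved none of the 33 member ratios outside its interval. The targeted gene, listed as Ttc8, had 0 UMIs in knockout cells but 5 in wild-type cells, all in 1 set. Clusters were formed without any chemokine ligand gene, so the classes do not rest on the values described. They were named after markers as P1-like (stem-like adipocyte precursors, with markers such as Dpp4 and Pi16), P2-like (committed precursors, Col15a1 and Icam1), P3-like (regulatory precursors, F3 and Mmp3), endothelial- (with pericyte markers in the same class), macrophage-, monocyte-, T cell-, B cell- and epithelial-like and mitotic cells. Stromal cells, the sum of P1 to P3, numbered 1821 in Bbs8 KO against 713 in Bbs8 WT. Clusters without leading markers held 2693 and 330 cells. In the Bbs8 WT mouse the rarer classes rest on 132 macrophage-like, 141 monocyte-like and 110 P3-like cells.

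Levels are UMIs of a gene over all UMIs of the class, scaled to CPM, with exact Poisson 95% intervals in parentheses. UMIs stand for molecules caught and amplified, so all intervals cover counting error only. Tags at transcript ends were not scaled by gene length, so levels are compared between classes and not between genes. The detected signal was very uneven. Ccl6 had 2052 UMIs in 1078 cells, Cxcl12 had 1143 in 726, Ccl8 had 958 in 544 and Ccl9 had 747 in 537. Cxcl14 had 197 UMIs, Ccl11 150, Cxcl13 116 and Ccl2 52. Ccl7 had 17 UMIs, all from Bbs8 KO cells, and Cxcl1, the neutrophil attractant that binds Cxcr2, had 2, so these genes were close to the detection limit.

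The 6 CC genes lie on mouse chromosome 11 in 2 groups (GRCm38, mm10, GENCODE gene spans). Ccl2 (chr11:82035571-82037453), Ccl7 (chr11:82045712-82047525), Ccl11 (chr11:82057823-82062955) and Ccl8 (chr11:82115185-82116799) follow each other on the plus strand, with gaps of 8258, 10297 and 52229 bases. Ccl9 (chr11:83572919-83578636) and Ccl6 (chr11:83587882-83593087) lie 1456119 bases beyond Ccl8 on the minus strand, 9245 bases apart. The CXC genes are apart from these and, except for a shared chromosome, from each other: Cxcl12 (chr6:117168535-117181367, plus), Cxcl14 (chr13:56288643-56296551, minus), Cxcl13 (chr5:95956951-95961068, plus) and Cxcl1 (chr5:90891241-90893115, plus). The neighbours Ccl11 and Ccl8 were led by different cells: Ccl11 was in stromal cells and had 0 UMIs in macrophage-like cells, which allows up to 9.6 CPM, whereas Ccl8 was led by macrophage-like cells.

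Promoter sequences, 250 bases before to 50 after the start, were found for 7 of the 10 genes in RefSeq (GRCm38.p6). Those of the neighbours Ccl6 and Ccl9 are shown first because both genes were led by the same pair of myeloid classes. Capitals mark the 4 stretches of at least 8 bases that both windows hold in the same order. Ccl6 is chr11:83593038-83593337 and Ccl9 chr11:83578587-83578886, both read on the minus strand.
Ccl6: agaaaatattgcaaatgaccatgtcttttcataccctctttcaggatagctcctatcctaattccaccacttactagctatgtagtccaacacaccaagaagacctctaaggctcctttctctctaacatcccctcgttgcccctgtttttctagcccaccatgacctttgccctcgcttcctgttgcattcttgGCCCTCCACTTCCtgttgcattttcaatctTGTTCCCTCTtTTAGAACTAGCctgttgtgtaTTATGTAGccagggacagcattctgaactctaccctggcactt
Ccl9: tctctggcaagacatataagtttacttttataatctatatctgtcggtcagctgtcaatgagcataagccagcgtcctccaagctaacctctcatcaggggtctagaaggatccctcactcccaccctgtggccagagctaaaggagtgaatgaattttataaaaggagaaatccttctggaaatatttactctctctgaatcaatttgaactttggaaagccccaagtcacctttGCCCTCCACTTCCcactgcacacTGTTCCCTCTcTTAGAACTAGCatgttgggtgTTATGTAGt
The 4 stretches sum to 42 bases. The longest, of 13 bases, occurred in 6 of 32851 mouse promoters (0.0183%), and the next, of 11 bases, in 4 (0.0122%). Over 253 aligned columns the pair was 64.8% identical, against 60.4% for Ccl6 and Ccl8, 52.9% for Ccl9 and Ccl8 and 49.1% for Ccl6 and Cxcl12. The stretches sit at different distances from the annotated starts, the first at -55 to -43 in Ccl6 and at -14 to -2 in Ccl9.

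Ccl8, shown as a myeloid gene with another spread over classes, has its promoter at chr11:82114935-82115234 on the plus strand. Capitals mark the letters TATAAA of a TATA box at -32, which 13.6% of all promoters hold on either strand.
Ccl8: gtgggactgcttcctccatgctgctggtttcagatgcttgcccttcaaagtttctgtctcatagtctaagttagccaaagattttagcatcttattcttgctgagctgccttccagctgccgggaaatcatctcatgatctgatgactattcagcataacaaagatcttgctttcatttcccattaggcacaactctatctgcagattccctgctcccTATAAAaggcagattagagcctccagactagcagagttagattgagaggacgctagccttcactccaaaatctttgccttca
The same letters occurred in the windows of Cxcl13 (1 match, at -46) and Ccl9 (3 matches) and in none of the other 4 members. The core GAGGAA bound by PU.1, a factor of the myeloid lineage, is held by 28.3% of promoters. Among the 7 windows it matched only in Ccl8, at -240, where it overlaps a match of the ETS core AGGAAG. The ETS core is held by 35.4% of promoters, and matched 2 times in Ccl6 and 1 time each in Ccl8 and Cxcl13.

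Cxcl12 and Cxcl14, the 2 CXC genes that were lower in Bbs8 KO than in Bbs8 WT stromal cells, have promoters of another make-up. Cxcl12 is chr6:117168285-117168584 on the plus strand and Cxcl14 chr13:56296502-56296801 on the minus strand, with GC boxes (GGGCGG on either strand) in capitals.
Cxcl12: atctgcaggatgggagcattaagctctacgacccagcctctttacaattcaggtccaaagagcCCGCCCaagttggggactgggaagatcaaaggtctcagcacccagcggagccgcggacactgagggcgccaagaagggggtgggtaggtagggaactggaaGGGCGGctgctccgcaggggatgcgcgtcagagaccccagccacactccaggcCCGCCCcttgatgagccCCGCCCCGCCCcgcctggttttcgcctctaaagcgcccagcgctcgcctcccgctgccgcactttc
Cxcl14: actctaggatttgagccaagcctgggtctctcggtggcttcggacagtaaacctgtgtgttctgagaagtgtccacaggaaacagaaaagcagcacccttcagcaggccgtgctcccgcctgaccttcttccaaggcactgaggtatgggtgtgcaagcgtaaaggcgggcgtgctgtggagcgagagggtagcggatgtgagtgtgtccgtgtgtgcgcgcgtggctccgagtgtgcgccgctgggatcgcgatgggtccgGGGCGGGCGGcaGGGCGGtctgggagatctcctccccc
Cxcl12 holds 5 GC boxes and Cxcl14 3, and 35.7% of promoters hold at least 1. Their GC contents were 64.7% and 62.7%, with a median of 52.7% over all promoters, whereas Ccl6, Ccl8, Ccl9 and Cxcl13 lay between 43.7% and 45.3%. Cxcl1, the remaining window, lay between these at 58.7% and held no GC box. A link of GC content with the genotype ratios was not tested. Letter matches describe the windows and were not tied to any binding.

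To locate the chemokines, levels were compared between classes over both mice. Cxcl12, the ligand of Cxcr4 that retains leukocytes and progenitors in their niche, was led by endothelial-like cells at 1525 CPM (1401 to 1657). P3-like cells followed at 832 CPM (691 to 994), P2-like cells at 238 (201 to 280) and P1-like cells at 162 (122 to 210). The intervals of the first 2 classes were separate but their barcode sets overlapped, and the intervals of P2-like and P1-like cells met. In Bbs8 WT alone these subtypes were apart, at 440 CPM (346 to 553) and 174 (101 to 279), whereas in Bbs8 KO they were at 162 and 157. Endothelial-like cells held 48.6% of all Cxcl12 UMIs with 9.45% of all UMIs of the table. At a finer clustering, added after the data were examined, this class separated into 259 endothelial-like cells with Cxcl12 at 2480 CPM (2212 to 2771) and 690 pericyte-like cells at 1023 (899 to 1160). Within the whole class the 266 cells with a Cxcl12 UMI carried 1.63-fold (1.5 to 1.76) as much of the endothelial markers as the 680 cells without. Kdr, the receptor of vascular endothelial growth factor and 1 of these markers, was at 2.31-fold (1.93 to 2.78) in the cells with a UMI. Pericyte markers were lower there, at 0.59-fold (0.512 to 0.678). Cells with a UMI were deeper, at a median of 369.5 against 271 UMIs. Among stromal cells, the 230 with a Cxcl12 UMI carried 2.15-fold (1.94 to 2.38) as much of the P3 markers as the other 2304, at medians of 497.5 and 305 UMIs. This pooled value largely restates the class levels. Within classes it was 1.45-fold (1.26 to 1.67) in P3-like and 1.38-fold (1.13 to 1.67) in P2-like cells.

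The other 2 detected CXC genes divided the stromal subtypes between them. Cxcl13, which attracts B cells through Cxcr5, was highest in P1-like cells at 167 CPM (127 to 216), with 58 of its 116 UMIs there, and stood at 41.3 (15.1 to 89.8) in P3-like and 13 (5.59 to 25.5) in P2-like cells. Cxcl14, a constitutive chemokine of epithelia and connective tissue whose receptor is not settled, was highest in P3-like cells at 371 CPM (279 to 485), followed by P2-like cells at 110 (85.5 to 140) and P1-like cells at 26.0 (11.9 to 49.3). Marker levels by cell describe the same UMIs in another way, since the classes were named by these lists, and give no separate support. Stromal cells with a Cxcl13 UMI (54 cells) carried 2.09-fold (1.82 to 2.38) as much of the P1 markers and 0.669-fold (0.57 to 0.781) as much of the P2 markers as the others. Within the P1-like class the P1 markers of these cells stood at 1.0-fold (0.868 to 1.15). Those with a Cxcl14 UMI (80 cells) carried 0.402-fold (0.308 to 0.516) as much of the P1 markers and 1.76-fold (1.61 to 1.92) as much of the P2 markers. Ccl11 (eotaxin, which attracts eosinophils through Ccr3) was at 117 CPM (68.1 to 187) in P3-like, 115 (89.8 to 145) in P2-like and 57.7 (35.2 to 89.1) in P1-like cells. Its P2-like and P3-like levels did not differ beyond their intervals, and 47.3% of its UMIs were in P2-like cells. The 92 stromal cells with a Ccl11 UMI carried 2.71-fold (1.59 to 4.39) as much Cxcl14 as the others, with a median of 621.5 against 313 UMIs. Their 20 Cxcl14 UMIs lay in only 6 cells. The interval counts UMIs and is too narrow for a difference between cells, and P1-like cells were low in both genes.

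**Figure D1:**
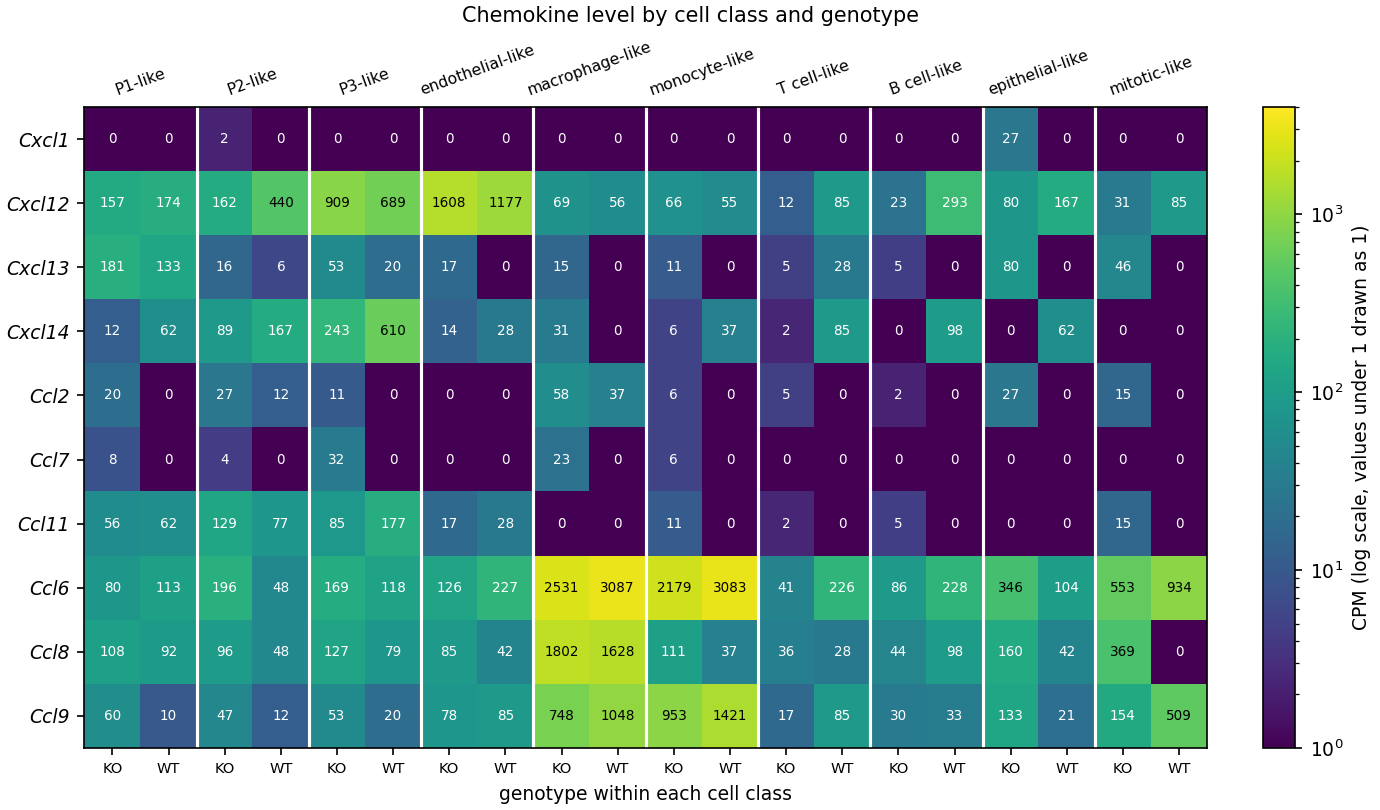
Heat map of the level of each chemokine (rows, CPM printed in each cell and on a log colour scale, values under 1 drawn as 1) in each cell class and genotype (columns). Cxcl12 peaked in endothelial-like cells, Cxcl13 in P1-like and Cxcl14 in P3-like cells, and Ccl8 in macrophage-like cells, while Ccl6 and Ccl9 were highest in the macrophage-like and monocyte-like classes.

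Ccl6, Ccl8 and Ccl9 were the myeloid genes. Ccl6 and Ccl9 are rodent CC chemokines that act through Ccr1, and Ccl8 is in mice a ligand of Ccr8. Ccl6 was at 2626 CPM (2449 to 2812) in macrophage-like and 2387 (2194 to 2594) in monocyte-like cells, which did not differ beyond the intervals. Ccl9 was at 1062 CPM (934 to 1202) in monocyte-like and 800 (704 to 905) in macrophage-like cells, with separate intervals and overlapping sets. Ccl8 was at 1772 CPM (1628 to 1926) in macrophage-like but 93.8 (58.8 to 142) in monocyte-like cells. The sets of these classes did not overlap, at 682 to 2060 and 0 to 205 CPM. The 3 genes therefore had different mixes: of their summed UMIs, Ccl8 made up 34.1% (31.8 to 36.5) in macrophage-like and 2.65% (1.67 to 3.98) in monocyte-like cells, and Ccl9 15.4% (13.7 to 17.2) and 30.0% (26.9 to 33.2).

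Ccl6, Ccl8 and Ccl9 were also unevenly spread within each myeloid class. In macrophage-like cells, the 338 cells with a Ccl6 UMI carried 2.21-fold (1.81 to 2.69) as much Ccl8 and 1.84-fold (1.39 to 2.46) as much Ccl9 as the 407 without, at medians of 391.5 and 255 UMIs, with macrophage markers at 1.51-fold (1.44 to 1.59) and T cell markers at 0.484-fold (0.369 to 0.633). Those with a Ccl8 UMI (208 cells) carried 1.61-fold (1.36 to 1.9) as much Folr2, a marker of tissue-resident macrophages. Over the whole resident macrophage list the figure was 1.32-fold (1.24 to 1.4), with Cd163 at 1.17-fold (0.987 to 1.4), and over the 10 macrophage markers 1.35-fold (1.28 to 1.41), while T cell markers were at 0.547-fold (0.4 to 0.74) and P2 markers at 0.596-fold (0.494 to 0.716). Monocyte markers were at 0.783-fold (0.58 to 1.05), among them Lyz1, a lysozyme, at 0.134-fold (0.0352 to 0.366) and Ccr2 at 0.801-fold (0.453 to 1.38). Their Ccl9 was not separable from that of the others, at 0.896-fold (0.683 to 1.17). In monocyte-like cells Ccl6 and Ccl9 went together: the 205 cells with a Ccl6 UMI carried 2.93-fold (2.2 to 3.94) as much Ccl9 and 3.31-fold (2.88 to 3.81) as much Lyz1 as the 340 without. The Ccl9-holding monocyte-like cells (135) carried 0.284-fold (0.0539 to 0.966) as much Ccl8, from 3 against 19 UMIs.

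Ccl2, which recruits Ccr2-bearing monocytes, was highest in macrophage-like cells at 54.4 CPM (31.7 to 87.1), and P2-like cells stood at 22.7 (12.4 to 38.0) with an overlapping interval. The 14 macrophage-like cells with a Ccl2 UMI carried 2.94-fold (1.9 to 4.38) as much of 10 fixed early response genes (such as Fos and Egr1) and 0.344-fold (0.138 to 0.713) as much Ccl8 as the other 731, at medians of 585.5 and 298 UMIs. Ccl7, which shares the receptor Ccr2, gave 6 UMIs in macrophage-like and 7 in stromal cells. Of these 7, 4 lay in the 13 stromal cells with a Ccl2 UMI and 3 in the other 2521. Cxcl1 gave 1 UMI in a P2-like and 1 in an epithelial-like cell.

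To name genes of like pattern, Pearson correlations were taken over 20 profiles (10 classes in 2 genotypes) among 6222 genes with at least 100 UMIs. They are descriptions, since profiles share libraries and depth. Ccl6 and Ccl9 were nearest to Lyz2 (r = 0.977 and 0.973), a lysozyme of myeloid cells. Next came Retnla, a secreted product of alternatively activated macrophages, for Ccl6 (r = 0.965), and Ccl6 and Ccl9 correlated with each other at r = 0.964. Ccl8 was nearest to Cd209g (r = 0.919), a lectin of the Cd209 family, and stood apart from Ccl6 (r = 0.485). Cxcl12 was nearest to Igfbp7 (r = 0.951), a secreted protein of vessels, Cxcl14 to Inmt (r = 0.859), which was itself a P3 marker, Ccl11 to Rbp4 (r = 0.945), the plasma carrier of retinol, and Cxcl13 to Plau (r = 0.857), the urokinase.

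Shares of cells with a UMI were compared with T cell- and B cell-like cells, which should lack these stromal and myeloid chemokines, after thinning each cell to 200 UMIs and leaving out 3104 shallower cells. Cxcl12 was detected in 20.1% (17.2 to 23.3) of thinned endothelial-like cells (28.1% unthinned) and 13.8% of P3-like cells (21.9%), against 0.671% (0.358 to 1.14) of T and B cell-like cells (0.787%). Ccl6 was detected in 33.7% of macrophage-like cells (45.4% unthinned) and 28.9% of monocyte-like cells (37.6%). In stromal cells it was in 2.63% (1.99 to 3.41; 4.78% unthinned), and in T and B cell-like cells in 1.34% (0.879 to 1.96; 2.25% unthinned). The order was not the same in the mice. Thinned Ccl6 shares were 3.03% (2.21 to 4.04) in stromal and 1.07% (0.647 to 1.67) in T and B cell-like cells of Bbs8 KO, against 1.73% (0.866 to 3.07) and 4.19% (1.7 to 8.45) of Bbs8 WT. The stromal share thus lay above that of T and B cell-like cells in Bbs8 KO, while in Bbs8 WT the intervals overlapped. T and B cell-like cells differed between the mice themselves, with macrophage markers at 252 CPM in Bbs8 KO and 803 in Bbs8 WT. What this means for stromal Ccl6 was not tested. Cxcl13 was in 2.24% of P1-like cells (5.37% unthinned) against 0.0516% of T and B cell-like cells (0.187%). The median depth per cell, Bbs8 KO first, was 313 and 328 UMIs in stromal, 303 and 286.5 in macrophage-like, 297 and 273 in endothelial-like and 262 and 233.5 in T and B cell-like cells.

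The mix of Ccl6, Ccl8 and Ccl9 outside the myeloid classes was set beside that of macrophage-like cells. In stromal cells, of 297 UMIs, 50.2% (44.3 to 56.0) were Ccl6, 34.7% (29.3 to 40.4) Ccl8 and 15.2% (11.3 to 19.7) Ccl9, within the intervals of the macrophage-like mix of 50.5%, 34.1% and 15.4%. In T and B cell-like cells the shares were 52.7%, 29.0% and 18.3% of 131 UMIs, and in clusters without leading markers 51.8%, 28.9% and 19.3% of 622. Of the stromal subtypes, P1-like cells had the lowest Ccl6 share, at 37.3% of 83 UMIs, with 43.4% Ccl8. The monocyte-like mix, with 2.65% Ccl8, lay below each of these in Ccl8. Stromal cells with a Ccl6 UMI (121 cells) carried 4.92-fold (4.06 to 5.93) as much of the 10 macrophage markers as the 2413 without, at medians of 402 and 314 UMIs. They also carried 2.85-fold (1.98 to 4.02) as much of the endothelial, 1.92-fold (1.44 to 2.52) of the T cell and 1.38-fold (1.08 to 1.73) of the monocyte markers. For each 100 macrophage-marker UMIs there were 46.5 UMIs of these 3 genes in stromal cells (43.3 in Bbs8 KO, 73.5 in Bbs8 WT), and 23.8 in macrophage-like and 90.9 in monocyte-like cells. The part of macrophage RNA in the stromal values of these 3 genes was not tested.

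**Figure D2:**
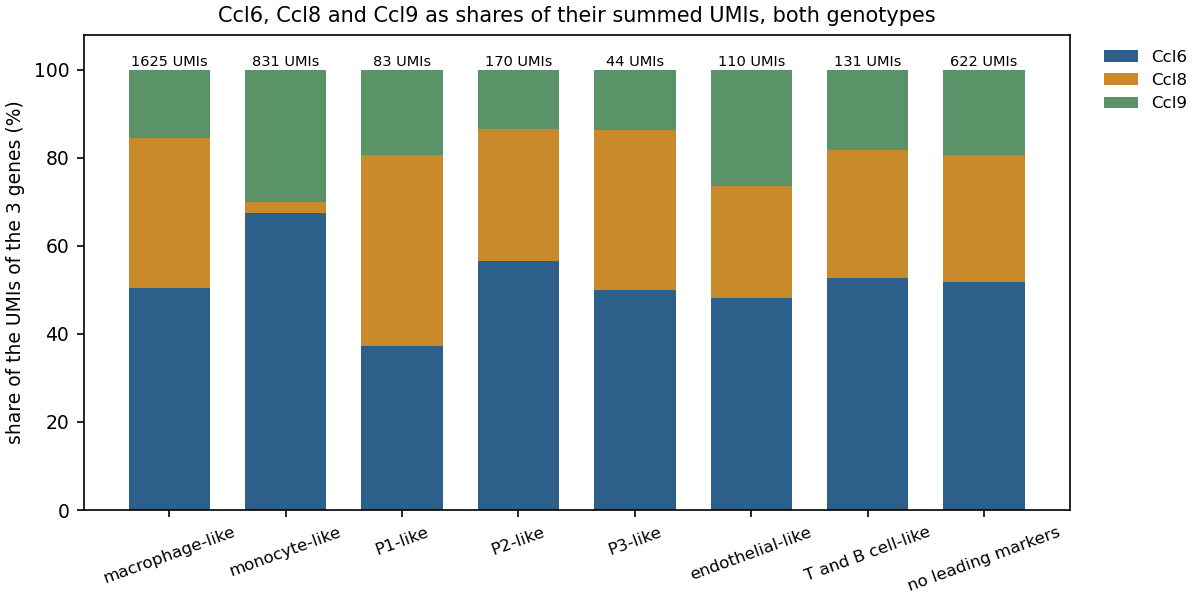
Stacked bars of the percent of Ccl6, Ccl8 and Ccl9 in their summed UMIs for each class, both genotypes together, with the number of UMIs above each bar. Ccl8 made up 34.1% in macrophage-like, 2.65% in monocyte-like and 30.0%, 36.4% and 43.4% in P2-, P3- and P1-like cells.

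To compare the genotypes, the log2 ratio of Bbs8 KO over Bbs8 WT was taken with a pseudocount of 5 CPM, beside the exact 95% counting interval of the plain ratio. A gene was called past 2-fold among those with at least 20 UMIs in the class, summed over both mice. Bbs8 KO held more UMIs in each class compared, so a sparse gene reaches this limit more easily where it is high in Bbs8 KO. In all stromal cells 8 members reached that number and 3 were past 2-fold, 1 lower and 2 higher in Bbs8 KO, beside 15.4% of all genes so tested. In none of the 8 were the barcode sets of the genotypes apart (6.19% of all genes). The median log2 ratio of these members was 0.57, beside 0.15 over all genes tested. The summed level of all 10 chemokines was alike in both mice, at 850 CPM (787 to 916) in Bbs8 KO against 904 (802 to 1015) in Bbs8 WT, with a log2 ratio of -0.09 (-0.29 to 0.12). The families differed under this sum. The 4 CXC genes were at 406 against 651 CPM, a log2 ratio of -0.67 (-0.94 to -0.42), and the 6 CC genes at 444 against 253, a ratio of 0.80 (0.46 to 1.18). The sets overlapped in both sums, at 336 to 468 and 334 to 1212 CPM for CXC and 336 to 536 and 189 to 385 for CC genes. Cxcl13 went against the CXC sum, at 0.55 (-0.24 to 1.53).

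By subtype the CXC level was lower in P2-like cells, where the 4 genes summed to 269 against 613 CPM with sets apart, at 175 to 369 and 378 to 719 CPM. The CXC ratio was -1.17 (-1.58 to -0.79) there, -0.08 (-0.65 to 0.52) in P1-like and -0.13 (-0.58 to 0.33) in P3-like cells. P3-like cells were highest in these genes, at 1205 and 1319 CPM. They numbered 214 of 1821 stromal cells in Bbs8 KO and 110 of 713 in Bbs8 WT. The part of this composition in the ratios over all stromal cells, Cxcl14 among them, was not tested. In P2-like cells Cxcl12 was at 214, 136, 170, 161 and 129 CPM in the Bbs8 KO sets and at 553, 189, 587, 413 and 545 CPM in the Bbs8 WT sets. All Bbs8 KO sets were below 4 of the 5 Bbs8 WT sets, and WT3_p2 lay within their range. The pooled levels were 162 CPM (127 to 204) and 440 (346 to 553), a log2 ratio of -1.41 (-1.93 to -0.95). In T and B cell-like cells, which should lack it, Cxcl12 was at 17.7 against 182 CPM, from 15 and 12 UMIs, and the part of such background in the P2-like ratio was not tested. Grouped by the number in the set code, the P2-like Cxcl12 level was 182 (119 to 267) for KO5, 153 (113 to 204) for KO6, 401 (257 to 597) for WT3 and 462 (343 to 609) for WT4. The share of thinned P2-like cells with Cxcl12 was 3.33% (2.23 to 4.78) for Bbs8 KO against 6.61% (4.24 to 9.75) for Bbs8 WT, with intervals that overlapped (5.86% and 12.6% unthinned). The lower level was not seen in the other subtypes: the ratio was 0.40 (-0.18 to 1.01) in P3-like and -0.15 (-1.01 to 0.76) in P1-like cells, where the sets overlapped. The difference between subtypes was not tested. In P2-like cells 6 members had 20 UMIs and 3 were past 2-fold, beside 17.4% of all genes, none with sets apart (5.59% of all genes).

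Cxcl14 was lower in Bbs8 KO in both classes that carry it. In P3-like cells it was at 154, 343, 240, 295 and 185 CPM in the Bbs8 KO sets and at 147, 273, 2271, 546 and 577 CPM in the Bbs8 WT sets. The ranges overlapped, and WT3_p3, with 10 UMIs in 13 cells, was far above all others. The P3-like ratio was -1.31 (-2.17 to -0.50) from 243 against 610 CPM, and -0.88 without WT3_p3, so it is no longer past 2-fold there. Cxcl14 in P2-like cells stood at 131, 68.1, 121, 93.9 and 27.7 CPM in the Bbs8 KO sets and at 166, 189, 130, 192 and 124 in the Bbs8 WT sets. Here 4 of the 5 Bbs8 KO sets were below all Bbs8 WT sets, with KO5_p2 within their range, and the ratio was -0.87 (-1.64 to -0.15). In T and B cell-like cells, which should lack it, Cxcl14 had 1 UMI in Bbs8 KO and 6 in the wild type, or 1.18 against 90.9 CPM, beside pan-stromal markers at 1529 against 3682 CPM. The part of such background in the stromal ratios was not tested. Over all stromal cells Cxcl14 was past 2-fold at -1.25 (-1.82 to -0.79), or 83.2 against 205 CPM, and without any single set the ratio stayed between -1.38 and -1.01. In P3-like cells 3 members had 20 UMIs and 1 was past 2-fold, beside 18.9% of all genes, none with sets apart (2.46% of all genes).

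**Figure D3:**
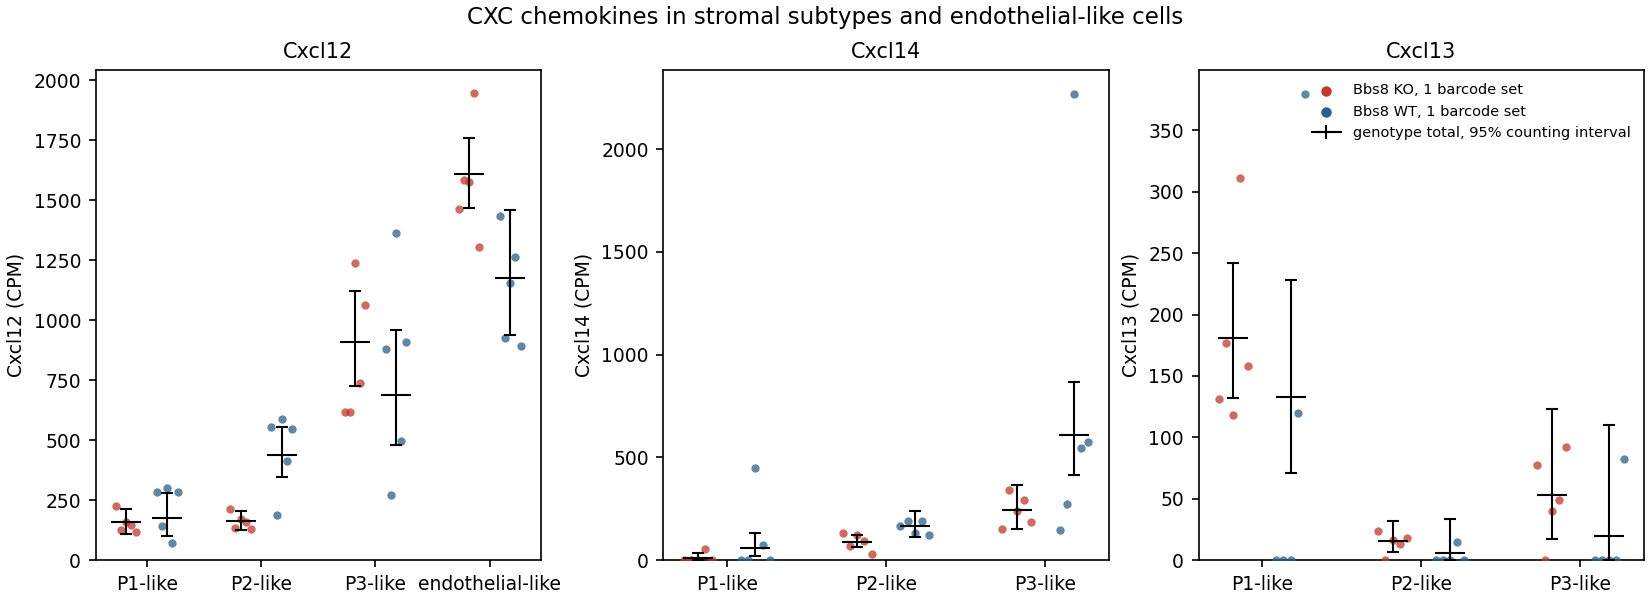
Level (CPM, linear axis from 0) of Cxcl12, Cxcl14 and Cxcl13 in each barcode set (points) for the classes on the horizontal axis, with the total of each genotype as a horizontal line and its 95% counting interval as a vertical one. Cxcl12 in P2-like cells was at 129 to 214 CPM in Bbs8 KO sets and 189 to 587 CPM in Bbs8 WT sets.

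Cxcl13 in P1-like cells was at 131, 177, 118, 311 and 158 CPM in the Bbs8 KO sets and at 0, 0, 0, 120 and 380 CPM in the Bbs8 WT sets. It was seen in every Bbs8 KO set, whereas all 13 Bbs8 WT UMIs came from the WT4 sets. The 3 WT3 sets had 0 of 34921 UMIs, which allows up to 85.9 CPM, against 207 (110 to 355) in WT4, so the Bbs8 WT sets differed among themselves beyond counting error. The pooled ratio was 0.43 (-0.48 to 1.45) and was 1.40 without WT4_p3. In P1-like cells 5 members had 20 UMIs and none was past 2-fold or had sets apart, beside 17.9% and 4.02% of all genes.

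In endothelial-like cells the direction for Cxcl12 was the opposite of that in P2-like cells. It was at 1461, 1584, 1576, 1947 and 1306 CPM in the Bbs8 KO sets and at 1435, 925, 1154, 1263 and 893 CPM in the Bbs8 WT sets. Only WT3_p1 reached into the range of the Bbs8 KO sets, and only KO6_p3 lay below it. The ratio was 0.45 (0.11 to 0.81), from 1608 and 1177 CPM, and stayed between 0.33 and 0.52 without any single set. With only cells of at least 200 genes it was 1.29. In this class endothelial markers were at 6760 (6466 to 7064) against 5543 CPM (5007 to 6120), with sets apart, and pericyte markers at 2812 against 3190, and their part in the ratio was not tested. At the finer clustering the endothelial-like cells had 2658 against 1786 CPM and the pericyte-like cells 1068 against 826. None of the 4 members with 20 UMIs was past 2-fold or had sets apart, beside 22.3% and 4.37% of all genes.

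**Figure D4:**
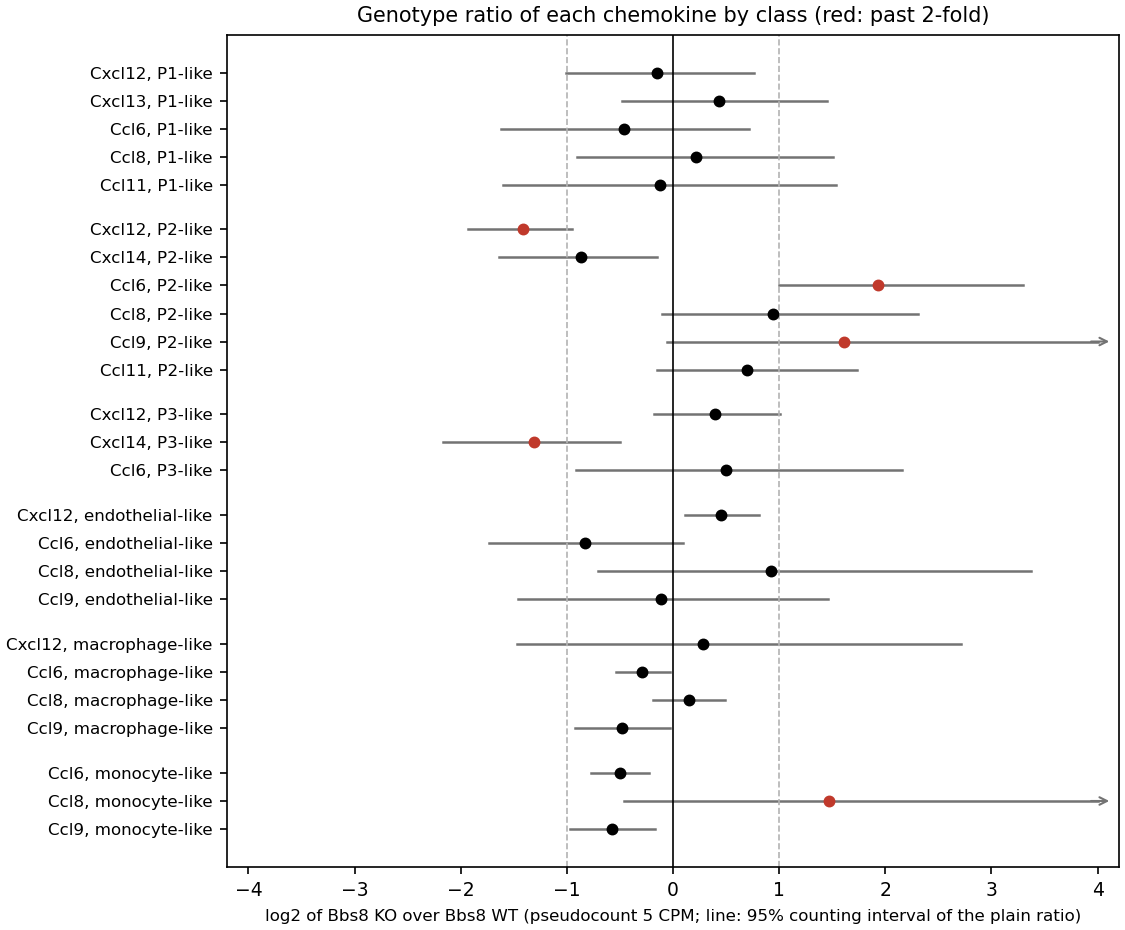
Log2 ratio of Bbs8 KO over Bbs8 WT for each chemokine with at least 20 UMIs in a class (points, pseudocount 5 CPM), with the 95% counting interval of the plain ratio as a line (arrows run past the axis) and ratios past 2-fold in red. Cxcl12 lay at -1.41 in P2-like and 0.45 in endothelial-like cells.

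The higher CC level of Bbs8 KO stroma lay mainly in Ccl6, Ccl8 and Ccl9. In P2-like cells Ccl6 was at 202, 119, 242, 148 and 212 CPM in the Bbs8 KO sets and at 166, 37.8, 0, 59.0 and 0 CPM in the Bbs8 WT sets. The ranges overlapped through WT3_p1, which had 3 UMIs, and the other 4 Bbs8 WT sets lay below all Bbs8 KO sets. The P2-like ratio of Ccl6 was 1.93 (1.00 to 3.30), from 88 and 8 UMIs. For Ccl9 it was 1.61 (-0.06 to 5.11), from 21 and 2 UMIs, and at the finer clustering it was -0.25. For Ccl8 it was 0.94 (-0.10 to 2.31). Over all stromal cells the ratios were 0.94 (0.36 to 1.67) for Ccl6, 0.60 (-0.07 to 1.41) for Ccl8 and 1.68 (0.57 to 3.97) for Ccl9.

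Macrophage markers were also higher in Bbs8 KO stromal cells. The 10 markers (among them C1qa, Mrc1, Cd163 and Adgre1) summed to 720 CPM (662 to 781) in Bbs8 KO against 215 (167 to 272) in Bbs8 WT stromal cells, with set ranges of 487 to 946 and 75.7 to 313 CPM. None of the 10 was at 0 in either mouse. In P2-like cells the sums were 834 and 250 CPM, in P3-like 856 and 315 and in P1-like 462 and 102. In P1-like cells Ccl6 was at 80.3 against 113 CPM, a ratio of -0.46 (-1.62 to 0.72) that was 0.54 without WT4_p2. Ccl8 there had a ratio of 0.22 (-0.90 to 1.51) and Ccl9 was at 60.2 against 10.2 CPM, from 15 and 1 UMIs. Of 7 fixed genes of resident macrophages, 6 had 20 UMIs in stromal cells and all 6 were past 2-fold higher in Bbs8 KO, with a median log2 ratio of 2.11, beside 15.4% of all stromal genes past 2-fold (917 higher and 182 lower). Pf4, a platelet and macrophage chemokine, had 55 and 1 UMIs in stromal cells. In T and B cell-like cells both the macrophage markers (252 against 803 CPM) and the chemokines went the other way: Ccl6 was at 63.7 against 227 CPM, a ratio of -1.76 (-2.68 to -0.90), and Ccl9 at 23.6 against 60.6, -1.20 (-2.94 to 0.65). With Cxcl12, lower there as given above, 3 of the 4 members with 20 UMIs were past 2-fold, all lower, beside 32.7% of all genes either way (1552 genes higher and 505 lower), none with sets apart (15.7% of all genes). The 8 T cell markers in stromal cells summed to 653 against 161 CPM, the 8 B cell markers to 1073 against 509 and the 8 endothelial markers to 303 against 82.2, while the 8 monocyte markers were at 919 and 954 and the 8 pan-stromal markers at 69270 and 84707. How far RNA of macrophages enters the stromal ratios was not tested.

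Ccl11, by contrast with Ccl6, had 0 UMIs in macrophage-like cells. Ccl2 is also a known stromal product, but like Ccl6 it was higher in macrophage-like than in stromal cells. Over both mice it was at 54.4 CPM in macrophage-like and 18.0 CPM in all stromal cells. In P2-like cells Ccl11 was at 83.2, 187, 153, 107 and 120 CPM in the Bbs8 KO sets and at 332, 0, 130, 44.2 and 49.6 CPM in the Bbs8 WT sets. The Bbs8 WT sets spanned the whole range of the Bbs8 KO sets, and the ratio was 0.70 (-0.15 to 1.73). Over all stromal cells it was 0.18 (-0.45 to 0.86). For Ccl2 the stromal levels were 6.65, 8.85, 10, 13.4 and 66.4 CPM in the Bbs8 KO sets, whereas 4 of the 5 Bbs8 WT sets had 0 and WT4_p2 had 15.4 CPM. A single set, KO6_p3, held 12 of the 18 Bbs8 KO UMIs. The stromal Ccl2 ratio of 1.29 (-0.22 to 5.0) was past 2-fold, but it was 0.39 without KO6_p3 and 2.47 without WT4_p2. The part of macrophage RNA in this ratio was not tested.

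In macrophage-like cells the ratios were small. There Ccl6 was at 2122, 2393, 3168, 2334 and 2327 CPM in the Bbs8 KO sets and at 2807, 2691, 3409, 2806 and 3999 CPM in the Bbs8 WT sets. All Bbs8 WT sets lay above 4 of the Bbs8 KO sets, and KO6_p1 lay among them. The ratio was -0.29 (-0.54 to -0.03). The sum of the 10 macrophage markers was also lower, at 20992 against 26213 CPM with sets apart. The 7 resident macrophage genes, most of them among these markers, went the other way at a median log2 ratio of 0.28. Of these, 1 was past 2-fold higher and 0 lower, beside 22.2% of all genes. T cell markers were at 876 against 168 CPM and B cell markers at 1647 against 823. The part of all these markers in the chemokine ratios was not tested. Ccl9 was at 748 against 1048 CPM, a ratio of -0.48 (-0.92 to -0.03), with overlapping sets at 669 to 840 and 702 to 1364 CPM. Ccl8, which went with Folr2 in this class, was at 2011, 1518, 2060, 1773 and 1497 CPM in the Bbs8 KO sets and at 842, 1938, 682, 1855 and 1666 CPM in the Bbs8 WT sets. Its sets overlapped widely, with WT3_p1 and WT3_p3 lowest, and the ratio was 0.15 (-0.19 to 0.49). None of the 4 members with 20 UMIs was past 2-fold or had sets apart, beside 22.2% and 3.95% of all genes, and their median was -0.07, beside 0.06. All 10 summed to 5278 CPM (5002 to 5565) in Bbs8 KO against 5856 (5225 to 6542) in Bbs8 WT macrophage-like cells, a ratio of -0.15 (-0.33 to 0.03).

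Among members with at least 20 UMIs in a class compared between the mice, only Ccl9 in monocyte-like cells had sets that did not overlap. It was at 1148, 903, 841, 911 and 1047 CPM in the Bbs8 KO sets and at 1730, 1360, 1695, 1232 and 1585 CPM in the Bbs8 WT sets. Every Bbs8 WT set lay above every Bbs8 KO set. Such a separation, in either direction, was seen for 3.75% of all genes tested in this class. It held for 1 of 3 members here and for none of those tested in the other classes, where it was seen for 2.46% to 15.7% of all genes, so a single such value among all classes reads as no more than the background. The ratio was -0.57 (-0.97 to -0.17), and the levels by set number were 1007 for KO5, 928 for KO6, 1547 for WT3 and 1336 for WT4. Ccl6 followed at 2625, 1776, 2235, 2212 and 2145 CPM against 4229, 3304, 2928, 3212 and 2008 CPM. WT4_p3 lay within the Bbs8 KO range and the other Bbs8 WT sets above it, with a ratio of -0.50 (-0.77 to -0.23). The share of thinned monocyte-like cells with a Ccl6 UMI was 25.0% (20.4 to 30.1) against 40.2% (31.0 to 49.9) (32.9% and 51.1% unthinned). Ccl8 was past 2-fold at 1.47 (-0.46 to 4.73), from 20 and 2 UMIs, and was 0.76 without WT4_p2. It was the 1 of 3 members past 2-fold, beside 21.5% of all genes. The summed macrophage markers in the monocyte-like class were at 3448 (3182 to 3730) and 5391 CPM (4790 to 6046), lower in Bbs8 KO. The 5 resident macrophage genes with 20 UMIs had a median log2 ratio of 0.41, with 1 past 2-fold higher (Cbr2) and 1 lower (F13a1). Monocyte markers were at 7057 and 8123 CPM, T cell markers at 826 and 462 and B cell markers at 1203 and 572. The part of these markers in the chemokine ratios was not tested.

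**Figure D5:**
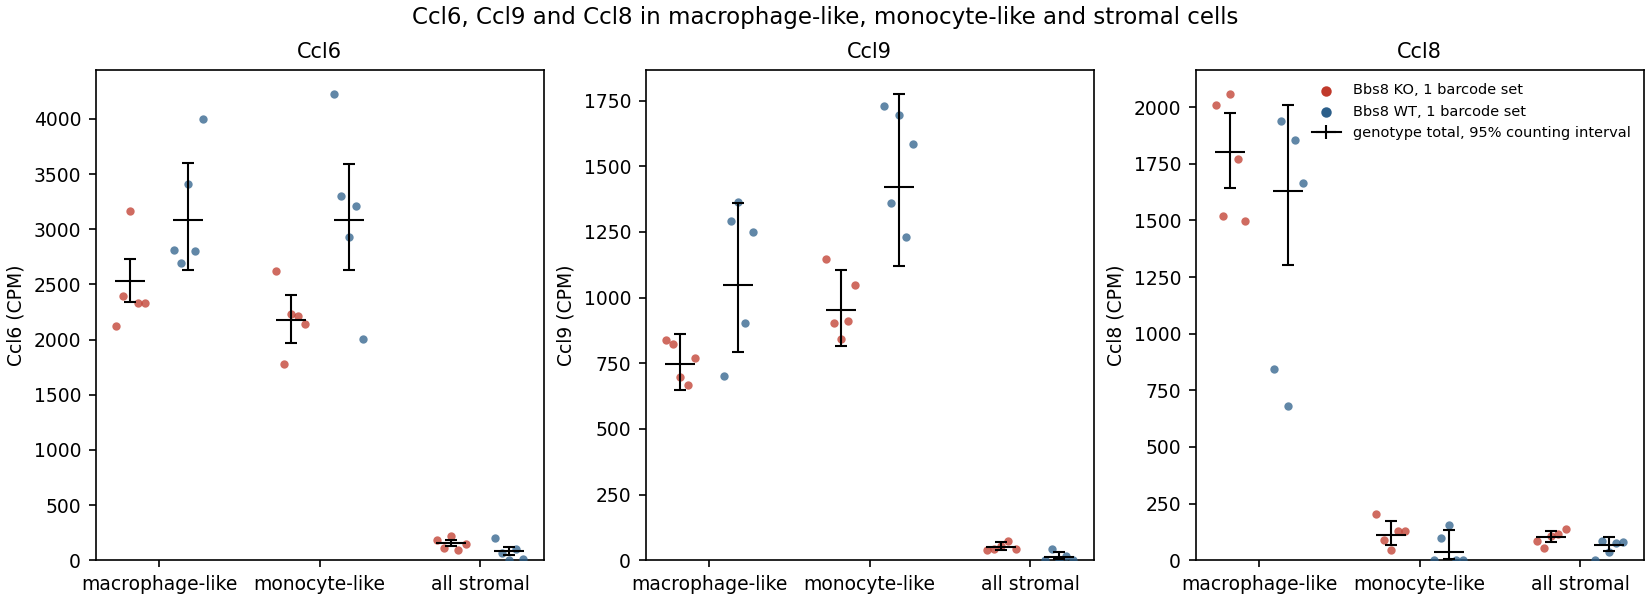
Level (CPM, linear axis from 0) of Ccl6, Ccl9 and Ccl8 in each barcode set (points) for macrophage-like, monocyte-like and stromal cells, with the total of each genotype as a horizontal line and its 95% counting interval as a vertical one. Ccl9 in monocyte-like cells was at 841 to 1148 CPM in Bbs8 KO sets and 1232 to 1730 CPM in Bbs8 WT sets.

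The cognate receptors were looked up by class. Of 18 signalling receptors 13 were in the table, with all 4 atypical ones, and Ccr3, Ccr8 and Cxcr2, the receptors of Ccl11, Ccl8 and Cxcl1, had no row. Ccr2, the receptor of Ccl2 and Ccl7, was highest in monocyte-like cells at 1445 CPM (1295 to 1608) and was level between the mice at 1436 and 1477 CPM. Ccr1, used by Ccl6 and Ccl9, was highest in macrophage-like cells at 125 CPM (88.7 to 171). Cxcr5, the receptor of Cxcl13, was highest in B cell-like cells at 145 CPM (112 to 184). Cxcr4 was sparse, with B cell-like cells highest at 34.6 CPM (19.8 to 56.2). Ackr3, an atypical receptor that clears Cxcl12, was highest in P1-like cells at 164 CPM (125 to 213), and so was Ackr2, which clears CC chemokines, at 101 (70.3 to 140). Ackr3 in P1-like cells was at 177 CPM in Bbs8 KO against 133 in Bbs8 WT, a ratio of 0.39 (-0.51 to 1.42). Dpp4, a protease that cleaves and inactivates Cxcl12 and itself a P1 marker, was at 906 CPM (808 to 1012) there, and at 895 and 932 CPM in Bbs8 KO and Bbs8 WT.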

How the data were processed

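Single-cell libraries of 1 Bbs8 KO and 1 Bbs8 WT mouse were analysed from the deposited table of UMI counts, 14623 genes by 10914 cells. Per the sources, the authors demultiplexed reads with bcl2fastq 2.20, ran dropSeqPipe (Drop-seq tools, STAR) against mm10 with GENCODE annotation, brought libraries to a common depth by downsampling, and kept cells with 100 to 1000 genes and at most 20% mitochondrial counts. Whether the deposited counts precede downsampling is not given in the sources used here. Barcode-set codes could not be matched to the 5 labelled samples per genotype, so sets were used as technical subsets only. The number of columns of unknown sample was 0.

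Cells were clustered in Seurat 5.3.0 (R 4.3.3) on 1989 variable genes after 11 chemokine ligands were taken out, with integration of the sets (30 dimensions, k.filter 100, k.weight 50) and resolution 0.8. Clusters of at least 60 cells were named where the mean log2 excess of a marker list over all cells (pseudocount 20 CPM) led and passed 0.5. Scrublet (scanpy 1.11.5) marked 25 cells (0.229%), was judged not to have worked, and no cell was removed. UMIs were summed per class and genotype. Poisson and ratio intervals are exact, shares have Clopper-Pearson intervals (scipy 1.17.1), and a count of 0 is read against 3 counts or the interval. With 1 mouse per genotype no test was possible. The 33 member ratios outside T and B cell-like cells were recomputed under 22 alternatives, among them TMM (edgeR 4.0.16) and DESeq2 1.42.0 size factors, used for scaling only, and the calculations were tested on simulated data.

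The members, the gene lists and the tests were chosen with earlier results of these data known. Named genes were the 10 members, the cognate receptors or leading genes of the fixed lists with at least 20 UMIs, and the genes of most like profile. Values for cells holding a member, the finer split of endothelial-like cells and the mix of myeloid chemokines were chosen after the data were seen. Gene positions are those of GENCODE on GRCm38, and promoter sequences are from RefSeq on GRCm38.p6, with entries for 7 of the 10 genes.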

Additional observations from a re-analysis of the deposited data

Results flagged for a closer look

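In each group of 5 barcode sets the highest and lowest set were compared with the rest, for 66 groups of a member, class and genotype. In 10 groups the gap of 1 set to its nearest neighbour exceeded 0.71 of the group's range, and most of these rest on few UMIs. For 5 normally distributed values chance passes that limit in about 1 in 20 groups. Sets here hold sparse counts and many zeros, and the groups of all stromal cells contain those of the subtypes. That rate therefore does not hold, and the 10 groups are not read as an excess.

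Among stromal cells, Cxcl14 in P3-like cells of WT3_p3 was at 2271 CPM (next set 577, 10 UMIs), and Cxcl14 in all stromal cells of WT3_p3 at 568 CPM (next 208, 15 UMIs). Ccl2 in stromal cells of KO6_p3 was at 66.4 CPM (next 13.4, 12 UMIs), and in WT4_p2 at 15.4 CPM, with 0 in the other sets and 2 UMIs. Cxcl13 in stromal cells of KO6_p2 was at 127 CPM (next 66.5, 19 UMIs). Ccl6 in P3-like cells was at 359 CPM in KO6_p1 (next 137, 9 UMIs) and at 587 CPM in WT3_p1 (next 136, 4 UMIs).

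In the other classes, Ccl6 in macrophage-like cells of KO6_p1 was at 3168 CPM (next 2393) and is the only value of this kind with over 200 UMIs, at 223. Ccl8 in endothelial-like cells of WT4_p3 was at 179 CPM (next 36.1), and Cxcl12 in macrophage-like cells of WT4_p3 at 167 CPM (next 45.3), each from 2 UMIs.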

How the results depend on the processing

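Of 726 recomputed ratios (33 member ratios under 22 alternatives, among them the 10 omissions of 1 set), 716 stayed within the counting interval of the reported value. Another 9 moved outside it, and 1 further ratio, also outside it, was reversed. Of the ratios past 2-fold, only Ccl9 in P2-like cells changed sign, from 1.61 to -0.25 at resolution 1.2. Smaller ratios changed sign without single sets. These were, in P1-like cells, Ccl6 (-0.46, and 0.54 without WT4_p2), Cxcl12 (-0.15, and 0.12 without WT4_p3), Ccl8 (0.22, and -0.02 without KO6_p3) and Ccl11 (-0.12, and 0.10 without WT4_p3). The others were Ccl6 in P3-like cells (0.50, and -0.22 without KO6_p1), Ccl11 in all stromal cells (0.18, and -0.15 without WT4_p2) and Ccl9 in endothelial-like cells (-0.11, and 0.23 without WT3_p2). The summed stromal ratio of -0.09 was -0.29 with DESeq2 size factors, which shift the median of all stromal genes by -0.183 (TMM by -0.161), and lay between -0.18 and -0.02 without single sets. The number of members past 2-fold in stromal cells, 3 as reported, was 1 without integration and 2 to 4 without single sets. In macrophage-like cells it was 0 as reported and without any single set, and 3 with no minimum of UMIs. Without WT4_p3 the ratio of Cxcl12 there was 1.35, but the gene then fell under the limit of 20 UMIs and was not counted. The summed macrophage ratio of -0.15 lay between -0.24 and -0.06 without single sets. Examples of values that moved far with 1 set were Ccl2 in stromal cells (1.29, but 0.39 without KO6_p3 and 2.47 without WT4_p2), Cxcl13 in P1-like cells (0.43, and 1.40 without WT4_p3), Ccl6 in P3-like cells (1.79 without WT3_p1), Cxcl12 in macrophage-like cells (0.28, and 1.35 without WT4_p3) and Ccl8 in endothelial-like cells (0.92, and 2.04 without WT4_p3). Cxcl12 in P2-like cells lay between -1.57 and -1.09 under all alternatives. Thinning moved 17 of 22 shares outside their unthinned interval, since it removes UMIs. No paired analysis was possible because no test was run with 1 mouse per genotype and no set code names a labelled replicate. Depth limits Ccl2, Ccl7 and Cxcl1 most. The cause of these changes was not tested.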

Other observations

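Other chemokine ligands showed patterns of their own. Of 28 fixed, 14 were in the table. Pf4, stored in platelets and also made by macrophages, was highest in macrophage-like cells at 1340 CPM (1215 to 1475), with 1231 in Bbs8 KO against 1871 in Bbs8 WT, which is -0.60 on the log2 scale (-0.93 to -0.27). Ccl5, which attracts T cells and is made by cytotoxic lymphocytes, was highest in clusters without leading markers at 442 CPM (395 to 492). In monocyte-like cells Ccl5 had 59 UMIs in Bbs8 KO against 2 in Bbs8 WT, a ratio of 2.99 (1.23 to 6.23), beside T cell markers at 826 and 462 CPM in this class, whose part was not tested. Cxcl9, an interferon-induced ligand of Cxcr3, was highest in endothelial-like cells at 107 CPM (76.1 to 146), and Ccl24, a second eotaxin, in macrophage-like cells at 125 (88.7 to 171). Of 3 such ligands with 20 UMIs in stromal cells 2 were past 2-fold higher in Bbs8 KO (Cxcl16 and Pf4), and of 3 in macrophage-like cells 1 was (Cxcl16), beside 15.4% and 22.2% of all genes past 2-fold either way. In monocyte-like cells Ccl5 was past 2-fold higher and Pf4 lower (-1.11, from 18 and 12 UMIs), beside 21.5%.

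Of 12 NF-kB and inflammatory genes fixed, 8 had 20 UMIs in stromal cells and 1 (Nfkb1) was past 2-fold higher in Bbs8 KO, beside 15.4% of all genes past 2-fold either way, with a median log2 ratio of 0.67. In P2-like cells 3 of 5 were higher (Nfkb1, Rela and Nfkbia; 17.4% of all genes; median 1.01), in monocyte-like cells 3 of 3 (21.5%; median 1.68) and in macrophage-like cells 0 of 4 (22.2%; median 0.47). Early response genes, which tissue digestion can induce, were past 2-fold in 0 of 8 cases in stromal cells, lower in 1 of 6 in P2-like cells (Egr1, 218 against 452 CPM) and in 1 of 6 in macrophage-like cells (Fos, 201 against 430 CPM), and higher in 3 of 6 in endothelial-like cells. The shares of all genes past 2-fold in these classes were 15.4%, 17.4%, 22.2% and 22.3%. Among signalling receptors in macrophage-like cells, Ccr1 had 36 UMIs in Bbs8 KO against 3 in Bbs8 WT, a ratio of 1.24 (-0.36 to 3.65), while Cx3cr1 had 20 and 0. Neither of the 2 atypical receptors with 20 UMIs in stromal cells was past 2-fold (Ackr2 at 0.77, Ackr3 at 0.29). Dpp4 was past it in macrophage-like (1.72, from 19 and 1 UMIs) and monocyte-like cells (2.77, from 28 and 1 UMIs) and not in stromal cells (0.05). The shares of all genes past 2-fold in these classes were 22.2%, 21.5% and 15.4%. Cx3cr1 and Dpp4 reached the limit of 20 UMIs in the myeloid classes almost only through Bbs8 KO, which has more cells there, so these calls favour that direction.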
